A study of Mus musculus with 8 samples.

Results

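The macrophage identity genes described here are *Lyz2*, *Cd68*, *Csf1r*, *Mertk*, *Mrc1*, *Apoe*, *Msr1*, *Gpnmb* and *Marco*, 9 genes by which cells of the macrophage lineage are commonly recognised. They were picked by gene symbol, and each had 1 row among the 23356 genes of an RNA-seq table from mouse bone marrow-derived dendritic cells (BMDCs). A total of 11397 genes passed a filter of no less than 1 FPKM (fragments normalised to transcript length and to library size) in 1 group or more, and 8 of the 9 members were among them. *Marco* did not reach 1 FPKM in any of the 4 groups.

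BMDCs of WT and of GEF-H1-/- animals, both on a C57BL/6 background, were left untreated or were given 100 nM ansamitocin-P3 for 5 h, to find which transcriptional responses to microtubule destabilization need GEF-H1. Ansamitocin-P3 is a maytansine-type compound that binds tubulin and destabilizes microtubules, and GEF-H1, the product of *Arhgef2*, is a nucleotide exchange factor for RhoA that microtubules hold inactive. The bone marrow of all 4 groups was kept for 6 days with GM-CSF and IL-4 at 10 ng/ml each, and non-adherent to loosely adherent cells were taken as BMDCs, with no sort described. Each group had 2 libraries, but the deposited table gives 1 FPKM per gene and group, into which Cuffdiff merged both, with a lower and an upper 95% bound. The labels do not say whether the 2 libraries of a group came from separate mice or whether animals were pooled, and the columns for WT cells were identified by elimination because their names carry no genotype.

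With 1 value per gene and group there was no SD and no test, so no difference below was set against the spread between duplicates. Each comparison is given as the log2 ratio of FPKM + 1, with a 95% interval propagated from the Cuffdiff bounds of both groups, which covers only the error that Cuffdiff modelled. A gene was counted as called when this ratio was over 1 or under -1. Separately, the bounds of both groups were called apart when they did not overlap.

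Macrophages of the bone marrow and of tissues depend on signalling through the CSF1 receptor, take up debris and dead cells through scavenger, lectin and TAM family receptors, and digest them in lysosomes that are rich in CD68, lysozyme and GPNMB. Cultures of bone marrow in GM-CSF and IL-4 are known to hold macrophage-like cells beside dendritic cells. Several of these genes are also transcribed outside macrophages, *Lyz2* for example in neutrophils and monocytes and *Csf1r* in monocytes, so their RNA is not a count of macrophages.

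The deleted gene was the check of the labels. *Arhgef2* was at 42.3 FPKM in WT DCs without and 45.9 with the drug, and 4.59 and 4.16 in untreated and drug-treated GEF-H1-/- DCs, with bounds apart between the genotypes in both states. Residual fragments were thus counted in cells of the knockout, and the allele's deleted part is not given in the sources used here. The dendritic cell list had high levels of *Itgax*, which encodes CD11c (102 to 175 FPKM over the groups), and of *Cd74*, the invariant chain (3073 to 4935), while the cross-presenting cell marker *Xcr1* stayed at or below 0.270 FPKM in each group.

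Among the members, *Lyz2* was by far the most abundant in each group and made up 70.3% to 74.3% of their summed FPKM. That sum was 792 and 713 in WT DCs without and with ansamitocin-P3, and 1324 and 1240.1 in the corresponding GEF-H1-/- DCs. In control WT DCs the order of levels was *Lyz2*, *Cd68*, *Csf1r*, *Gpnmb*, *Apoe*, *Mrc1*, *Msr1*, *Mertk* and *Marco*. The neighbours *Cd68* and *Csf1r*, *Gpnmb* and *Apoe*, *Mrc1* and *Msr1*, and *Msr1* and *Mertk* had overlapping bounds there. In control GEF-H1-/- DCs, *Gpnmb* stood level with *Csf1r*, and *Msr1* with *Apoe* and *Mrc1*, again by overlapping bounds. *Lyz2* ranked 87 to 200 among the 11397 genes over the groups, *Cd68* and *Csf1r* lay between ranks 673 and 1639, and *Mertk*, the lowest member to pass the filter, between 8148 and 11044.

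**Figure D1:**
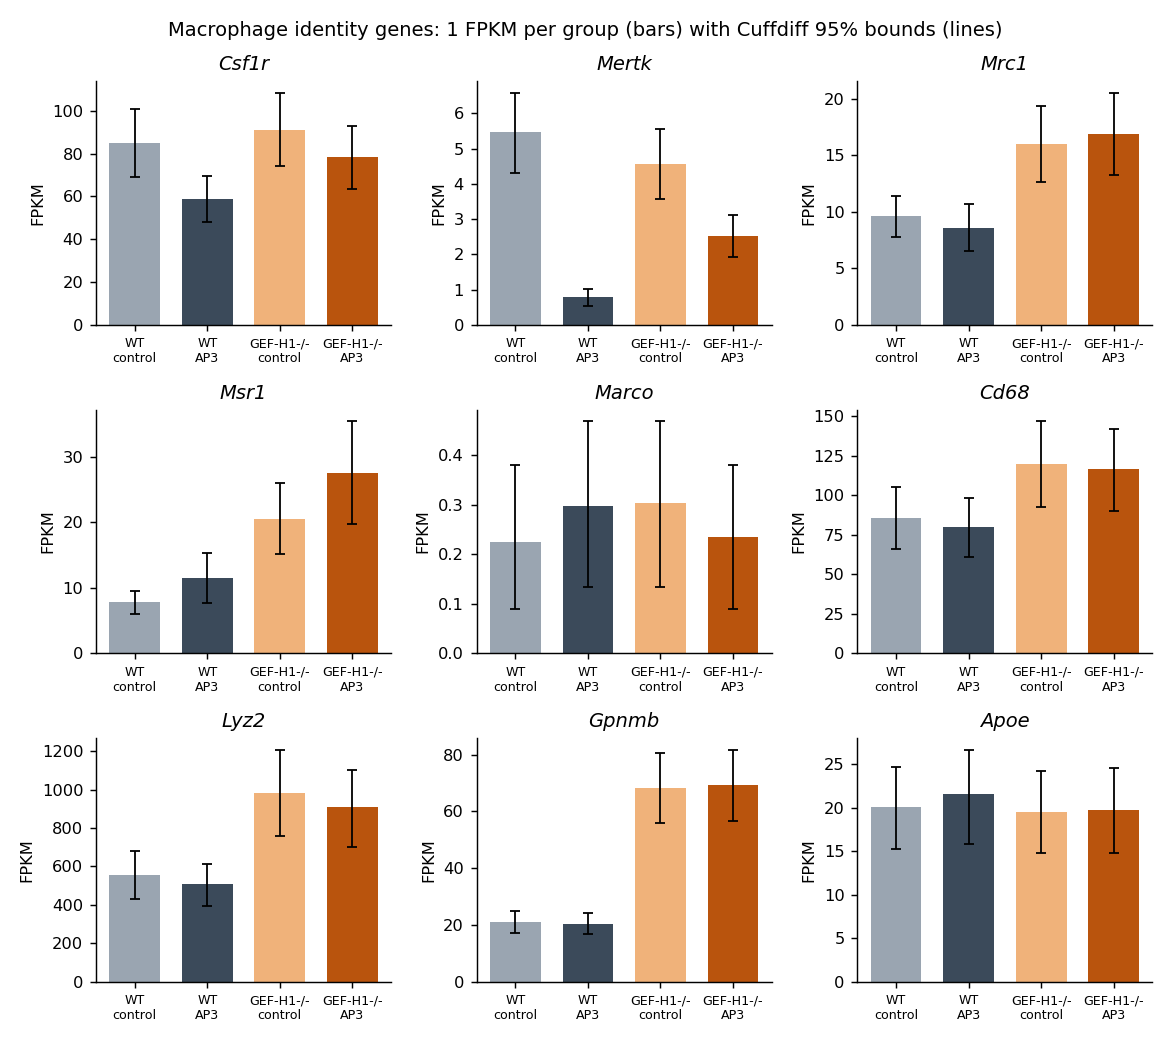
FPKM of the 9 macrophage identity genes in control and ansamitocin-P3-treated (AP3) WT and GEF-H1-/- DCs. Bars are the 1 value that the table gives per group and lines are the Cuffdiff 95% bounds, with a separate linear axis from 0 for each gene. *Mertk* drops from 5.46 to 0.778 FPKM in WT, *Gpnmb* is at about the same level in both states of a genotype and higher in GEF-H1-/- (68.3 and 69.2 against 21.1 and 20.5), and *Marco* stays below 1 FPKM.

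Ansamitocin-P3 left most of these genes within their bounds, and the member called was *Mertk*. In WT DCs, 1 of 8 members was called lower and none higher, against 1.28% of all genes called lower and 3.66% called higher. The same gene was the 1 of 8 with bounds apart and lower, against 7.58% of all genes, and none had bounds apart and higher, against 9.19%. The median log2 ratio was -0.11 over the 8 members and 0.00 over all genes tested. In GEF-H1-/- DCs no member was called in either direction, where the shares of all genes were 0.807% higher and 0.272% lower, and 1 of 8 (*Mertk*) had bounds apart and lower, against 0.956% of all genes, with none apart and higher, against 2.75%. The member median there was -0.01, equal to that of all genes.

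The genotype made a larger difference to the list. In control cells, 2 of 8 members (*Msr1* and *Gpnmb*) were called higher in GEF-H1-/- DCs, against 1.26% of all genes, and none was called lower, against 0.614%. Bounds were apart and higher for 4 of 8 (*Lyz2*, *Mrc1*, *Msr1* and *Gpnmb*), against 2.86% of all genes, and apart and lower for none, against 1.88%. In treated cells the same 2 genes were called higher, against 2.0% of all genes, with none called lower, against 2.06%, and *Mertk* joined the other 4 genes with bounds apart and higher, which made 5 of 8 against 7.02% of all genes, with none apart and lower, against 6.73%. The median log2 ratio of the members was 0.58 in control and 0.86 in treated cells, against -0.01 and -0.03 over all genes. Both genotype comparisons share their groups with the treatment comparisons, and the values of a member in them are not independent.

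For the difference between genotypes in the effect of ansamitocin-P3, 1 of 8 members (*Mertk*) was over 1, against 0.535% of all genes, and none was under -1, against 1.36%. The other 7 members had differences between -0.10 and 0.31, each with an interval that included 0.

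RNA of other cell types also moved with the genotype, and this stands beside each genotype difference below. The neutrophil list, of which 8 of 9 genes had a row, summed to 32454 and 38309.9 FPKM in control and treated WT and to 21879 and 22277 in control and treated GEF-H1-/- DCs. *S100a8* carried most of that gap, at 19401 FPKM in control WT and 10856 in control GEF-H1-/- DCs, and its FPKM lay outside its own Cuffdiff bounds in all 4 groups. The granule genes split, with *Camp* at 189 against 15 FPKM in control WT and control GEF-H1-/-, *Ngp* at 1707 against 702 and *Ltf* at 399 against 145, while *Elane* was at 20.7 against 45.9 (with overlapping bounds) and *Mpo* at 26.4 against 63.1. Of the 5 basophil and mast cell genes, 4 had bounds apart and higher in control GEF-H1-/- DCs, against 2.86% of all genes. Their sum was 189 and 193 FPKM in WT against 369 and 353 in GEF-H1-/- DCs. The monocyte list summed to 712 and 617 FPKM in WT and to 491 and 428 in GEF-H1-/- DCs, with the monocyte antigen gene *Ly6c2* at 448 against 231 in control cells, and the conventional dendritic cell list to 4717 and 6333 against 3979 and 4460, most of it *Cd74*. No gene of the dendritic cell list had bounds apart and lower between the genotypes, against 1.88% of all genes in control and 6.73% in treated cells. *Cd209a* in both states and *Flt3* in treated cells, both at low levels, had bounds apart and higher. The shares of all genes for that were 2.86% in control and 7.02% in treated cells. Of the 9 genes of that list over the filter, 6 were lower and 3 higher in control GEF-H1-/- DCs (median log2 ratio -0.26). In treated cells 5 were lower and 4 higher (-0.22). *Zbtb46* was at 14.8 and 22.1 FPKM in WT against 9.09 and 13.2 in GEF-H1-/- DCs, with overlapping bounds in each state. The natural killer list held 1 gene over the filter, *Gzma*, at 84.4 FPKM in control WT and 32.4 in control GEF-H1-/- DCs, while *Ncr1* and *Klrb1c* stayed below 1 FPKM. T cell genes summed to 12.3 and 13.0 FPKM in WT against 8.46 and 7.91, B cell genes to 6.43 and 4.41 against 4.13 and 3.06, erythroid genes to 1.17 at most and fibroblast genes to 0.244 and 0.0825 against 3.08 and 2.67. No gene of these lists was listed at 0. The part of such cells in the members' genotype differences was not tested, and in bulk RNA fewer cells of a type cannot be told apart from less RNA per cell.

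**Figure D2:**
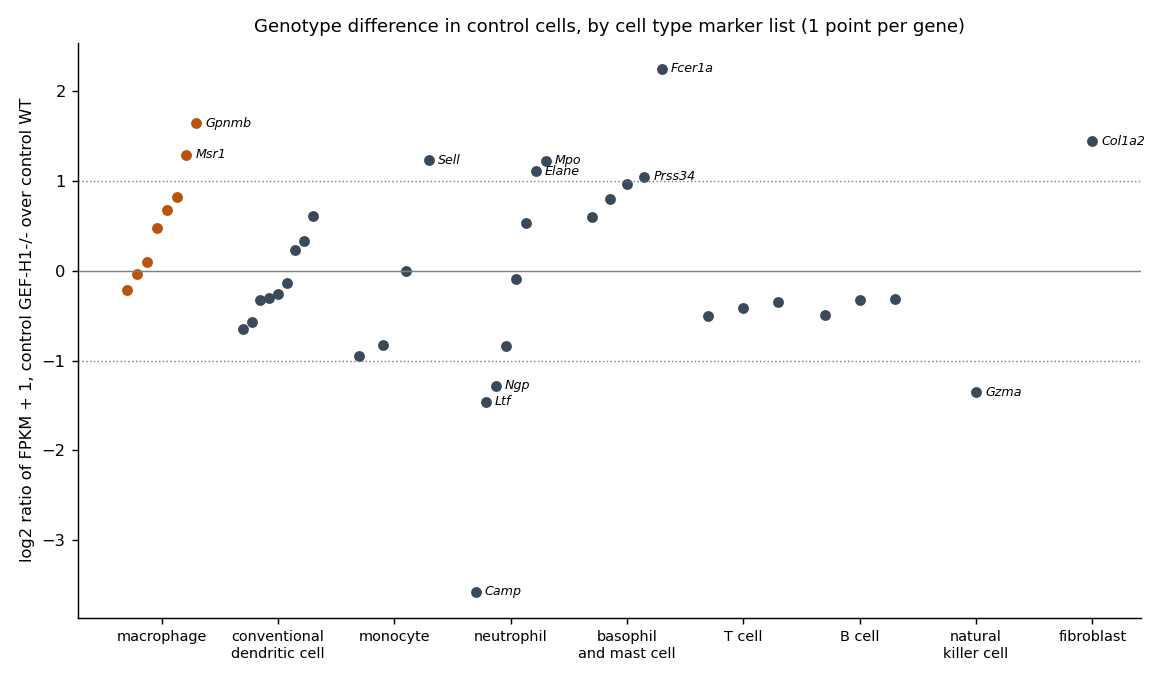
Log2 ratio of FPKM + 1 between control GEF-H1-/- and control WT DCs for each gene of 9 cell type marker lists that passed the filter, 1 point per gene, with the macrophage identity genes in orange and dotted lines at 1 and -1. Genes past these lines are named. The macrophage genes run from -0.22 to 1.65, and genes of the neutrophil list lie on both sides of 0, with *Camp* at -3.57 and *Mpo* at 1.23.

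*Csf1r* (chr18:61105572-61131139, mm10 as for each locus given here from the table) encodes the receptor for CSF1 and IL-34, on which the survival of macrophages depends. It was at 84.9 FPKM (Cuffdiff bounds 69.0 to 101) in WT DCs without and 58.7 (47.9 to 69.3) with the drug, and 91.3 (74.2 to 109) and 78.2 (63.6 to 92.9) in untreated and drug-treated GEF-H1-/- DCs. The treated WT group was the lowest of the 4, and its upper bound just overlapped the lower bound of control WT DCs. The log2 ratio with treatment was -0.53 (95% interval -0.90 to -0.15) in WT and -0.22 (-0.60 to 0.16) in the knockout, and the difference between these effects, 0.31 (-0.22 to 0.84), had an interval that included 0. Neither effect was called, but the bounds of the WT groups came apart under each of 3 rescalings of the columns. The genotypes differed by 0.10 (-0.28 to 0.48) in control and 0.41 (0.04 to 0.78) in treated cells.

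The ligand gene *Csf1* was at 32.3, 176, 54.8 and 86.1 FPKM in the same order of groups (as for each run of 4 values below). Of 15 genes of the growth factor list that passed the filter, it was the 1 called higher with treatment in WT. The share of all genes called higher there was 3.66%. None of the 15 was called lower, against 1.28%. *Csf1r* itself counts among those 15. With treatment in WT, 3 of the 15 had bounds apart and higher and 2 apart and lower, against 9.19% and 7.58% of all genes. In GEF-H1-/- DCs none had bounds apart in either direction, against 2.75% higher and 0.956% lower. For *Socs1*, 1 of those 2, the FPKM of treated WT DCs lay outside its own bounds. Between the genotypes, *Csf3r*, the receptor gene for G-CSF, was called higher in GEF-H1-/- DCs in both states (11.3 against 30.7 FPKM in control cells). It was the 1 of the 15 called higher in each state, against 1.26% of all genes in control and 2.0% in treated cells. *Csf1* was the 1 called lower in the treated state, against 2.06%, and none was in control cells, against 0.614%. The most abundant gene of the list, *Tyrobp*, which encodes the adaptor DAP12, was at 605 to 831 FPKM over the groups and was not called in any comparison.

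*Mertk* (chr2:128698997-128802188) encodes the TAM family receptor tyrosine kinase through which macrophages recognise and engulf apoptotic cells. It was at 5.46 FPKM (4.32 to 6.59) in WT DCs without and 0.778 (0.536 to 1.01) with the drug, and 4.56 (3.58 to 5.56) and 2.53 (1.93 to 3.13) in untreated and drug-treated GEF-H1-/- DCs. Both treated groups lay below both control groups without overlap of bounds, and the treated WT group lay below all others. In FPKM, the control level was 7.03 times the treated level in WT and 1.80 times in GEF-H1-/- DCs. The log2 ratio of FPKM + 1 was -1.86 (-2.18 to -1.54) in WT and -0.65 (-1.01 to -0.30) in the knockout, and the difference between the effects was 1.21 (0.73 to 1.68). Control cells of the genotypes differed by -0.22 (-0.58 to 0.14), and treated GEF-H1-/- DCs stood 0.99 (0.68 to 1.30) above treated WT DCs, just under the limit for a call. Since the gene is low, the + 1 compresses these ratios, and with 5 FPKM added in its place neither the WT effect nor the difference between the effects was called.

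The related TAM receptor genes were like *Mertk* only in part. *Axl* also fell with treatment in WT with bounds apart, and less in GEF-H1-/- DCs, where its bounds overlapped. *Axl* was at 140.4, 71.8, 81.0 and 66.9 FPKM in the same order of groups, a log2 ratio with treatment of -0.96 (-1.38 to -0.53) in WT and -0.27 (-0.75 to 0.21) in GEF-H1-/- DCs. Unlike *Mertk*, whose control levels had overlapping bounds, *Axl* had bounds apart and lower in control GEF-H1-/- DCs. *Tyro3* was low throughout, at 0.698 to 1.25 FPKM, and of the bridging ligands that link these receptors to dying cells, *Gas6* was at 0.403 to 1.49 and *Pros1* at 9.29 to 16.1 FPKM.

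Of the 24 genes listed for MERTK and the clearance of apoptotic cells, 20 passed the filter. With treatment, WT DCs had 2 called higher and 1, *Mertk*, called lower, against 3.66% and 1.28% of all genes. Bounds there were apart and higher for 7 and apart and lower for 3, against 9.19% and 7.58%. GEF-H1-/- DCs had none called, against 0.807% higher and 0.272% lower. The 2 called higher were *Itgb3*, the beta subunit of the vitronectin receptor that binds MFG-E8-coated cells (25.4, 79.9, 24.9 and 26.3 FPKM), and *Havcr2*, which encodes TIM-3 (16.8, 48.9, 17.3 and 26.8). *Mertk* thus moved opposite to the integrin gene, and the difference between genotypes in the effect was over 1 for *Mertk* and under -1 for *Itgb3* (-1.53, -2.05 to -1.02). Between the genotypes, *C1qa* was the 1 gene called higher in GEF-H1-/- DCs in both states. The shares of all genes were 1.26% in control and 2.0% in treated cells. *Itgb3* was the 1 called lower in treated cells, against 2.06%. The most abundant gene of the list, *Lgals3* for galectin-3, was at 1505 to 2259.6 FPKM and was not called. The list median with treatment was 0.29 in WT and 0.10 in the knockout.

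**Figure D3:**
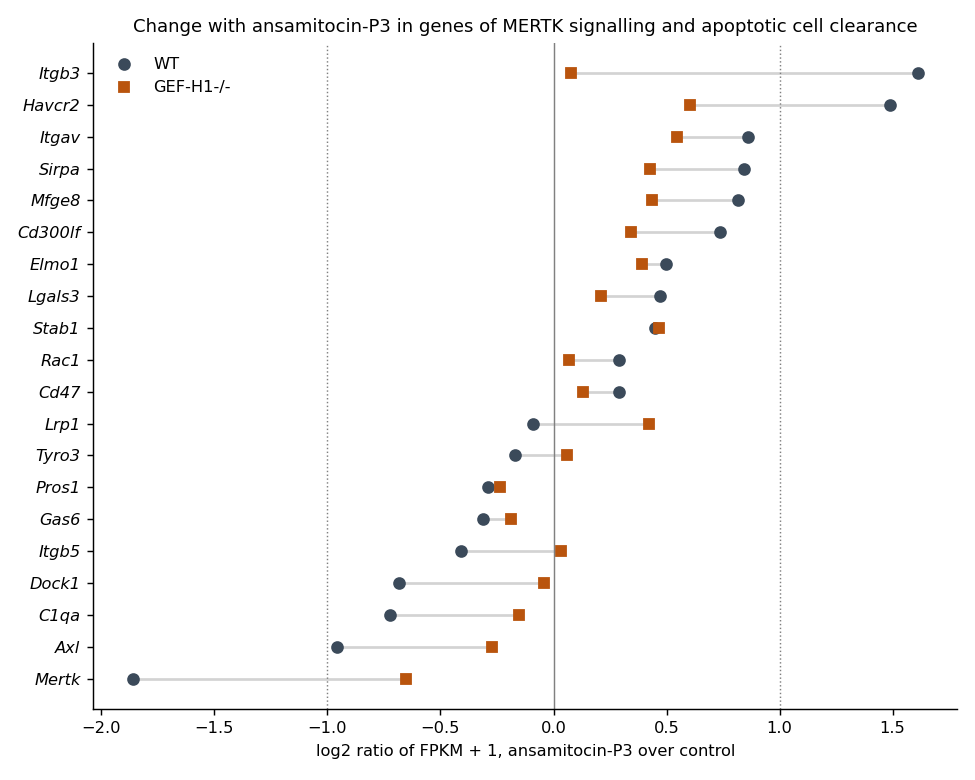
Log2 ratio of FPKM + 1 with ansamitocin-P3 in WT (circles) and GEF-H1-/- (squares) DCs for the 20 genes of the MERTK and apoptotic cell clearance list that passed the filter, with dotted lines at 1 and -1. *Mertk* is the lowest in WT at -1.86 and stands at -0.65 in GEF-H1-/- DCs, and *Itgb3* is the highest in WT at 1.61 and stands at 0.08 in GEF-H1-/- DCs.

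*Mrc1* (chr2:14229414-14332023) encodes the mannose receptor CD206, an endocytic lectin that is raised by IL-4. It was at 9.62 FPKM (7.81 to 11.4) in WT DCs without and 8.59 (6.52 to 10.7) with the drug, and 16.0 (12.6 to 19.4) and 16.9 (13.2 to 20.5) in untreated and drug-treated GEF-H1-/- DCs. Both GEF-H1-/- groups were above both WT groups without overlap of bounds, and the treated and control groups of a genotype overlapped. The genotype difference was 0.68 (0.30 to 1.06) in control and 0.90 (0.47 to 1.33) in treated cells, under the limit for a call in both.

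*Msr1* encodes the class A scavenger receptor CD204, which binds modified lipoproteins and bacterial surfaces. Its levels were 7.79 FPKM (6.02 to 9.57) in WT DCs without and 11.5 (7.65 to 15.3) with the drug, and 20.6 (15.1 to 26.0) and 27.6 (19.7 to 35.5) in untreated and drug-treated GEF-H1-/- DCs. Control GEF-H1-/- DCs lay above control WT DCs, and treated above treated, without overlap, whereas treated WT and control GEF-H1-/- DCs overlapped narrowly. The genotype difference was 1.29 (0.83 to 1.76) in control and 1.20 (0.60 to 1.79) in treated cells, both called, but with 5 FPKM added in place of 1 they were 0.999 and 0.985 and neither was called. With treatment the ratio was 0.50 (-0.03 to 1.03) in WT and 0.41 (-0.13 to 0.95) in knockout cells, and these intervals included 0. The row of *Msr1* in the table covered 760340 bases of chromosome 8 (chr8:39467448-40227787, mm10), and how fragments of other transcripts in that stretch were assigned is not given in the sources used here.

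*Marco* (chr1:120474538-120505084), the other class A receptor among the members, is typical of alveolar and splenic marginal zone macrophages. It was at 0.224, 0.298, 0.302 and 0.235 FPKM in the same order of groups, with bounds from 0.0893 to 0.469 that overlapped in each pair. Its bounds spanned 111% to 129.5% of its level, against 36.2% to 66.6% for the other members, so its level was the least precise of the 9.

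The list of scavenger and mannose receptors held 24 genes, of which 18 passed the filter, *Msr1*, *Mrc1* and *Cd68* among them. In control GEF-H1-/- DCs, *Msr1* was the 1 gene of the list called higher, against 1.26% of all genes. There 6 had bounds apart and higher and none apart and lower, against 2.86% and 1.88%. In treated cells, 8 had bounds apart and higher and 4 apart and lower, against 7.02% and 6.73% of all genes. *Olr1*, the gene for the lectin-like scavenger receptor LOX-1, was called lower there, against 2.06%. With treatment of WT DCs, *Olr1*, *Clec7a*, the gene for the beta-glucan receptor dectin-1, and *Cxcl16* were called higher, against 3.66% of all genes. *Clec7a* was the most abundant gene of the list (361, 1150.0, 397 and 582 FPKM). None of those 3 is a member.

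**Figure D4:**
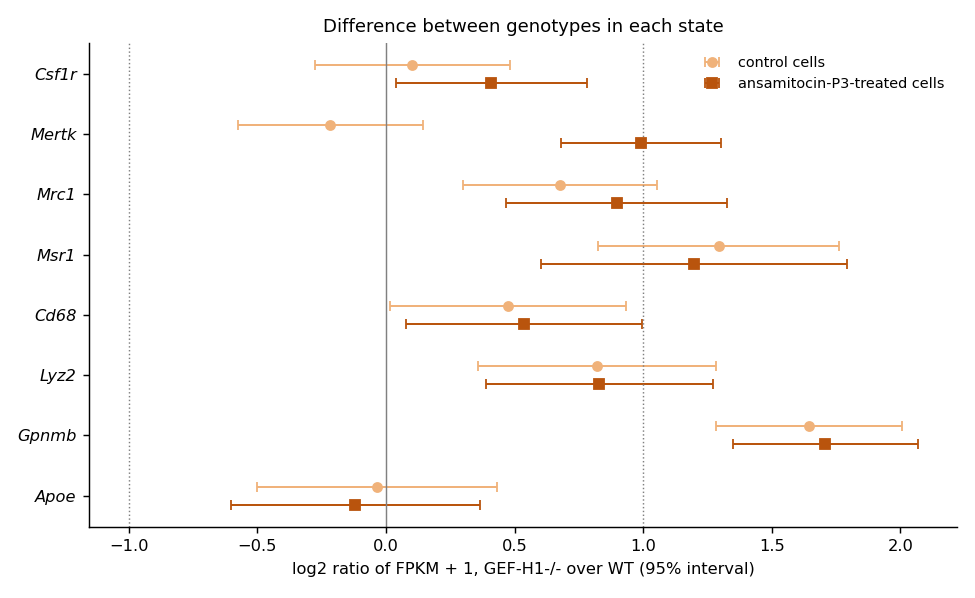
Log2 ratio of FPKM + 1 between GEF-H1-/- and WT DCs for the 8 members that passed the filter, in control (circles) and ansamitocin-P3-treated (squares) cells, with the 95% interval propagated from the Cuffdiff bounds and dotted lines at 1 and -1. *Gpnmb* (1.65 and 1.71) and *Msr1* (1.29 and 1.20) are past the limit in both states, *Apoe* lies at -0.03 and -0.12, and *Mertk* moves from -0.22 to 0.99.

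Among the lysosomal and secreted products, *Lyz2* encodes the M-type lysozyme that degrades bacterial cell walls. It was at 557 FPKM (430.5 to 682) in WT DCs without and 511 (396 to 615) with the drug, and 984 (759 to 1208) and 909 (702 to 1100.3) in untreated and drug-treated GEF-H1-/- DCs. Both GEF-H1-/- groups lay above both WT groups with bounds apart, by 0.82 (0.36 to 1.28) in control and 0.83 (0.39 to 1.27) in treated cells, under the limit for a call. With treatment its log2 ratio was -0.12 (-0.57 to 0.33) in WT and -0.11 (-0.57 to 0.34) in GEF-H1-/- DCs.

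*Lyz2* lies beside its near-identical copy *Lyz1* on the minus strand of chromosome 10 (coding stretches chr10:117278121-117282242 and chr10:117288583-117292838, GRCm38), both with 4 exons. Their coding sequences of 447 bases differ at 22 positions and are 95.1% identical, with a longest identical run of 118 bases. Of the 1282 windows of 35 bases (the length of 1 read of a pair in this study) in the *Lyz2* transcript, 364 (28.4%) also occur in *Lyz1*. The first 150 coding bases from GENCODE M21 are shown because they hold 14 of the 22 differences, which are in capitals.
Lyz2: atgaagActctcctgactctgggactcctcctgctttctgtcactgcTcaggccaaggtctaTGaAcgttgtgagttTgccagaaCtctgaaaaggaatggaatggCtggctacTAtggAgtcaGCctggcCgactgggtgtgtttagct
Lyz1: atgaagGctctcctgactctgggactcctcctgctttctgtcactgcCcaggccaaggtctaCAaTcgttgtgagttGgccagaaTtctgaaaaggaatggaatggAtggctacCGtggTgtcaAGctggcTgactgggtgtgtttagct
*Lyz1* was at 51.3, 44.7, 88.1 and 77.3 FPKM, and its genotype differences of 0.77 (0.34 to 1.20) and 0.78 (0.35 to 1.21) stood beside 0.82 and 0.83 for *Lyz2*. How the authors' counting split such reads is not given in the sources used here, so the levels of both genes are uncertain to that extent. Of the other members, *Csf1r* shared 0.38% and *Gpnmb* 0.569% of such windows with other genes, and the rest shared none.

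The list of lysozymes and secreted macrophage products held 15 genes, of which 13 passed the filter. In control GEF-H1-/- DCs, 3 were called higher and 7 had bounds apart and higher, against 1.26% and 2.86% of all genes. None was called or apart lower, against 0.614% and 1.88%. The 3 were *Retnla*, an IL-4-induced secreted protein gene (510.0, 537, 2397 and 2378 FPKM), *Mmp12*, for macrophage elastase (233, 1520.4, 635 and 951), and the chemokine gene *Ccl9* (125, 378, 262 and 319.8). *Retnla*, like *Lyz2*, was at about the same level in both states of each genotype, whereas *Mmp12* and *Ccl9* were also called higher with treatment in WT, together with *Il1rn* and *Ccl6*. These were 4 of 13, against 3.66% of all genes, and none was called lower, against 1.28%. *Lcn2* and *Il1rn* were called lower in treated GEF-H1-/- than in treated WT DCs, against 2.06% of all genes, and *Retnla* was called higher, against 2.0%. The most abundant gene of the list was *Cst3*, for cystatin C, at 3874 to 8178 FPKM. *Chil3*, found under its older symbol, was listed at 0 in all 4 groups with a lower bound above its upper bound, which marks a failed estimate, so its level is not known here.

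*Cd68* (chr11:69664371-69666062) encodes macrosialin, a heavily glycosylated protein of late endosomes and lysosomes. It was at 86.0 FPKM (66.1 to 105) in WT DCs without and 79.9 (61.2 to 98.4) with the drug, and 119.9 (92.5 to 147) and 116 (90.1 to 142) in untreated and drug-treated GEF-H1-/- DCs. All 4 bounds overlapped. The intervals of the genotype differences, 0.48 (0.02 to 0.93) in control and 0.54 (0.08 to 0.998) in treated cells, did not include 0, and neither was called. With treatment the log2 ratio of *Cd68* was -0.10 (-0.57 to 0.36) in WT and -0.04 (-0.50 to 0.41) in GEF-H1-/- DCs.

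*Gpnmb* (chr6:49036518-49058182) encodes a transmembrane glycoprotein of lysosomes and the cell surface that is a known target of MITF and TFE factors and is high in lipid-laden macrophages. It was at 21.1 FPKM (17.3 to 25.0) in WT DCs without and 20.5 (16.7 to 24.2) with the drug, and 68.3 (55.8 to 80.7) and 69.2 (56.7 to 81.8) in untreated and drug-treated GEF-H1-/- DCs. The genotypes were far apart in both states, and treatment left each almost where it was. The level in GEF-H1-/- DCs was 3.23 times that in WT in control and 3.38 times in treated cells. The log2 differences of 1.65 (1.29 to 2.01) and 1.71 (1.35 to 2.07) were the largest of any member, and those with treatment were -0.04 (-0.40 to 0.31) in WT and 0.02 (-0.35 to 0.39) in GEF-H1-/- DCs.

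All 22 genes of the list around *Gpnmb* passed the filter. In control GEF-H1-/- DCs, 6 had bounds apart and higher and none apart and lower, against 2.86% and 1.88% of all genes. There 3 were called higher, against 1.26%. Beside *Gpnmb* these were *Ctsk*, the gene for the lysosomal protease cathepsin K (1.62, 1.61, 8.36 and 8.65 FPKM), and *Spp1*, for osteopontin (166, 271, 377 and 474). The factors themselves were not called in any comparison, with *Mitf* at 7.59 against 8.64, *Tfeb* at 19.0 against 19.1, *Tfe3* at 27.4 against 26.4 and *Tfec* at 69.9 against 80.5 FPKM in control WT and control GEF-H1-/- DCs. In treated cells, 3 were called higher in GEF-H1-/- DCs (*Gpnmb*, *Ctsk* and *Lipa*) and none lower, against 2.0% and 2.06% of all genes. *Lipa* was at 57.6 FPKM in treated WT and 120 in treated GEF-H1-/- DCs. Bounds there were apart and higher for 7 and apart and lower for none, against 7.02% and 6.73%. With treatment, *Cd9* and *Sdc4* were called higher in WT and none lower, against 3.66% and 1.28%. No gene of the list was called in GEF-H1-/- DCs, against 0.807% higher and 0.272% lower. The most abundant was *Lgals3*, as in the clearance list, and the list median in control cells was 0.18.

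*Apoe* (chr7:19696244-19699166) encodes the apolipoprotein by which macrophages export cholesterol. It was at 20.02 FPKM (15.2 to 24.7) in WT DCs without and 21.6 (15.9 to 26.7) with the drug, and 19.5 (14.8 to 24.3) and 19.8 (14.8 to 24.6) in untreated and drug-treated GEF-H1-/- DCs. The 4 groups overlapped almost fully, and the log2 ratios of the 4 comparisons between groups ran from -0.12 to 0.10 with intervals that reached from -0.60 to 0.58. Of 24 genes listed for APOE and sterol efflux, 21 passed the filter. In that list *Ch25h*, for cholesterol 25-hydroxylase, was called higher with treatment in WT and also between the genotypes (0.769, 6.44, 9.06 and 17.9 FPKM). With treatment, 2 of the 21 were called higher in WT, against 3.66% of all genes. Between the genotypes *Ch25h* was the 1 called higher in both states, against 1.26% in control and 2.0% in treated cells. *Apoc2* and *Abcg1* were called lower in treated GEF-H1-/- than in treated WT DCs, against 2.06% of all genes. The list median in control cells was -0.05. Its most abundant gene was *Lpl*, for lipoprotein lipase, at 713, 407, 716 and 798 FPKM, with bounds apart and lower in treated WT DCs.

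**Figure D5:**
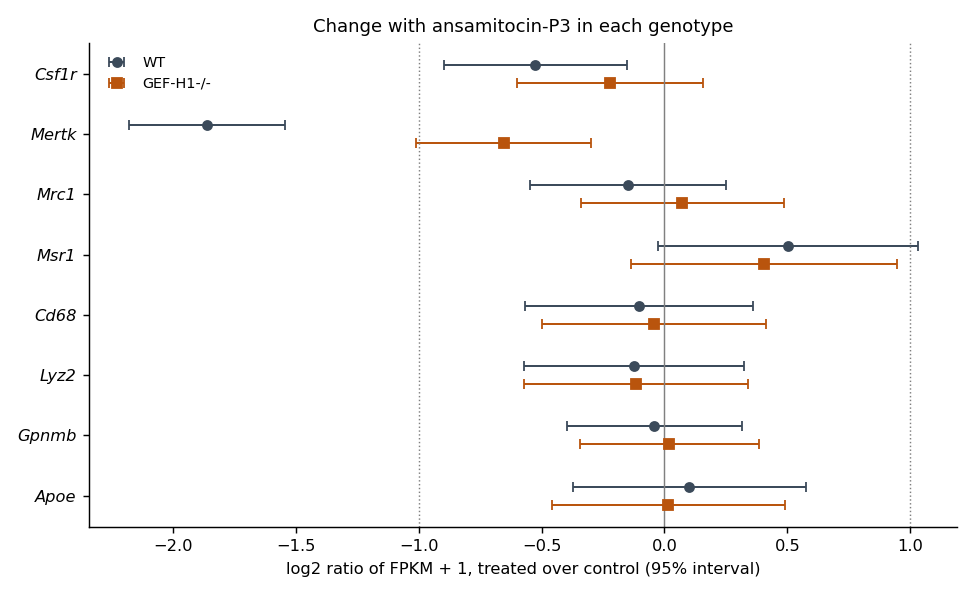
Log2 ratio of FPKM + 1 between ansamitocin-P3-treated and control cells for the 8 members that passed the filter, in WT (circles) and GEF-H1-/- (squares) DCs, with the 95% interval propagated from the Cuffdiff bounds and dotted lines at 1 and -1. *Mertk* is at -1.86 in WT and -0.65 in GEF-H1-/- DCs, *Csf1r* at -0.53 in WT, and the intervals of the other 6 members include 0 in both genotypes.

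Promoter windows from RefSeq (GRCm38.p6, 250 bases before to 50 after a start site) were found for 7 of the 9 members, not for *Msr1* and *Csf1r*. *Apoe* had 3 windows and the others 1 each, which made 9. The AP-1 motif TGANTCA, searched on both strands, occurred in those of *Gpnmb* (1 match) and *Cd68* (2 matches), while 7.81% of all 32851 windows held it. Both are shown as the members with a match to the motif of a factor family that the study followed, up to 20 bases past the start site and with the matches in capitals. The window of *Gpnmb* is chr6:49036268-49036537 on the plus strand and that of *Cd68* chr11:69666151-69666420 on the minus strand.
Gpnmb: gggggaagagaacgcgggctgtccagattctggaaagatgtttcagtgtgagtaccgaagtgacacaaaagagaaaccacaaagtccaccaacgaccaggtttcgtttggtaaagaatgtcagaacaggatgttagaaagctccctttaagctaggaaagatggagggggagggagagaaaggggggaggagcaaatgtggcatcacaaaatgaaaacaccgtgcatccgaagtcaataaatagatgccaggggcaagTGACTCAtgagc
Cd68: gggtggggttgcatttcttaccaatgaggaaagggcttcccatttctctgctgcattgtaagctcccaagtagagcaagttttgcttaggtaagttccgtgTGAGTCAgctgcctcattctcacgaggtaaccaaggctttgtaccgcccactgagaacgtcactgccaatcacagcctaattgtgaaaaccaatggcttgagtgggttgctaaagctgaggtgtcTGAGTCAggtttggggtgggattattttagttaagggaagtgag
The match in *Gpnmb* begins 8 bases past the start site, and those in *Cd68* begin at -149 and -24. *Gpnmb* and *Cd68* differed in their values, since *Gpnmb* was called between the genotypes and *Cd68* was not, and neither was called with treatment. *Mertk*, the member called with treatment, had no match to AP-1. The MITF and TFE core CATGTG occurred in the windows of *Mrc1* and *Marco* (2 matches each, 14.2% of all windows) and not in that of *Gpnmb*, and CACGTG in none (7.15%). The PU.1 motif GAGGAAGT occurred in none (3.20% of all windows), its core GGAA in all 9 (96.0%), the C/EBP motif TTGCGCAA in none (0.183%) and its looser form TTNNGNAA, which TTGCGCAA also matches, in 6 of the 9 windows (40.7% of all windows), for *Apoe* in 1 of its 3. A match is a string of letters and not evidence of binding.

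For each member, the genes with the most similar values were sought by the Euclidean distance over 3 log2 ratios (the effect of treatment in each genotype and the genotype difference in control cells) among 8894 genes that reached 5 FPKM in 1 group or more. The distance takes in 3 values per gene from 4 groups and carries no error. For *Mertk* these were *Ppargc1b* (distance 0.21; 6.18, 1.21, 5.48 and 3.47 FPKM), *Fam198a* and the chemokine receptor gene *Ccr2* (136, 37.8, 135 and 94.5 FPKM). For *Gpnmb* they were *Ly86* (0.16; 9.07, 8.68, 28.5 and 26.4 FPKM), *Ctsk* and *Myl10*, and for *Msr1* *Lilra6* (0.17; 13.0, 18.3, 31.8 and 38.1 FPKM), *Cldn11* and *Slc11a1*. *Lyz2* was closest to the mast cell and basophil gene *Cpa3* (0.09; 31.1, 29.7, 54.9 and 53.0 FPKM), to *Lyz1* and to *Fads2*. *Mrc1* was closest to *Ggt5*, *Itga6* and *Apobec1*, and *Cd68* to *Cirh1a*, *Fam20c* and *Lst1*. *Csf1r* was closest to *Sephs2*, *Alg1* and *Myg1*, and *Apoe*, which hardly moved, to *Eif3c*, *Atp5b* and *Psmb4*.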

How the data were processed

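RNA was sequenced from 8 libraries, 2 for each of 4 groups, as strand-specific 35-base read pairs from polyadenylated RNA. The authors computed FPKM with Cuffdiff (version 1.05 and build mm10 per the submitters' processing notes) and deposited 1 merged FPKM per gene and group, with its lower and upper 95% bounds, also in FPKM (unit given as other), and a status. The aligner and the annotation of this table are not given in the sources used here. No value column was left unused (0).

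Of 23356 genes, 107 without status OK in all groups were left out, and 11397 reached at least 1 FPKM in at least 1 group. The design had named limma for separate libraries. Merged values allow no test, so log2 ratios of FPKM + 1 (pseudocount 1) were computed with Python 3.11.15, NumPy 2.4.6 and pandas 2.3.3, with intervals from the bounds taken as independent, normal and symmetric (quantile 1.96). Calls were ratios over 1 or under -1. The computation was tested on simulated data. Totals per library are unknown because FPKM keeps no depth, and the columns do not share a sum. Over genes with status OK it was 604772 and 734144 in untreated and treated WT DCs and 594706 and 612810 in untreated and treated GEF-H1-/- DCs.

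The members, the gene lists and the marker lists were chosen with earlier results of these data known. Named genes were *Arhgef2*, the members, *Lyz1*, called genes of each list (at most 6 per list and comparison), its most abundant gene, and the 3 genes closest to each member, and 1 called gene is not reported here. Other genes named beside them are relatives or markers chosen after their values were seen. Promoters came from RefSeq (GRCm38.p6) and lysozyme transcripts from GENCODE M21. Older symbols in the table (*Emr1*, *Sfpi1*, *Chi3l3*, *Chi3l4*) were matched to *Adgre1*, *Spi1*, *Chil3* and *Chil4*. Alternatives were a pseudocount of 0.1 or 5 FPKM, a filter of 5 FPKM or none, a limit of 1.5-fold, calls that also require bounds apart, and rescaling to the median ratio or to a common sum. A rescaling without small RNA genes was added after seeing the data.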

Additional observations from a re-analysis of the deposited data

How the results depend on the processing

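No paired analysis was possible because the table holds 1 merged value per group. For the same reason limma, the replicate block and leaving out single libraries were not run, and depth limits could not be computed. With 5 FPKM added, the count of members called was 0 lower with treatment in WT (1 with 1 FPKM added), 1 higher between the genotypes in control and 1 in treated cells (2 in each before, *Msr1* being the gene lost), and 0 over 1 for the difference between the effects (1 before). *Mertk* is at 0.778 to 5.46 FPKM, so a larger pseudocount shrinks its ratios by construction. They were -2.66 and -0.86 in WT, 1.59 and 0.38 between treated cells, and 1.84 and 0.51 for the difference between the effects with 0.1 and 5 FPKM added. At a limit of 1.5-fold, 1 member was called lower in GEF-H1-/- DCs with treatment (0 before), and 4 in control and 5 in treated cells were called higher in GEF-H1-/- DCs, against 1.20%, 3.19% and 7.33% of all genes. Under rescaling to the median ratio, to a common sum, and to a common sum without small RNA genes (the last chosen after seeing the data), 2 members had bounds apart and lower with treatment in WT (1 before), since *Csf1r* joined *Mertk*, against 7.90%, 17.4% and 15.7% of all genes. Under both common sums 5 members were called higher in treated GEF-H1-/- than in treated WT DCs (2 before), against 3.63% and 3.53% of all genes (2.0% before). A common sum moved the median of all genes to -0.24 with treatment in WT and to 0.20 between treated cells. Relative to that shift, *Mertk* stayed lower with treatment in WT. With 0.1 FPKM added, 3 members were called higher between treated cells, *Mertk* being added, against 3.83% of all genes, and the other counts were those reported. The counts of called members with no filter, a filter of 5 FPKM, or bounds apart as a condition for a call were those reported, and no called ratio changed sign under any alternative run.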

Other observations

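Other macrophage surface and lineage markers differed between the genotypes in different directions. Of 22 such genes, 16 passed the filter, and in control GEF-H1-/- DCs 5 were called higher and 1 lower, against 1.26% and 0.614% of all genes. Bounds there were apart and higher for 6 and apart and lower for 2, against 2.86% and 1.88%. The complement C1q genes, which macrophages are a main source of, were among those higher, with *C1qa* at 4.22, 2.16, 29.2 and 26.1 FPKM in control WT, treated WT, control GEF-H1-/- and treated GEF-H1-/- DCs, *C1qb* at 26.0, 17.9, 67.4 and 64.1, and *C1qc* at 14.2, 10.9, 40.1 and 39.4. The 3 genes lie side by side in the genome and had bounds apart and higher in both states, and *Cd5l* (0.327 against 2.02 FPKM in control cells) and *Lyve1* (0.856 against 2.75) were also called higher, both at low levels. *Emr4* was called lower (2.69 against 0.634), and *Siglec1* had bounds apart and lower without a call (1.63 against 0.534). *Timd4*, *Vsig4*, *Cd163*, *Cx3cr1* and *Folr2*, which mark macrophages resident in tissues, stayed below 1 FPKM in each group, and *Clec4f* of Kupffer cells was listed at 0 in all 4. *Adgre1*, the gene for F4/80, was at 35.9, 20.4, 36.9 and 29.6 FPKM and had bounds apart and lower with treatment in WT and overlapping in GEF-H1-/- DCs, with a difference between the effects of 0.48. *Cd14*, for the co-receptor of lipopolysaccharide, went the other way, at 14.7, 250.1, 12.4 and 27.3 FPKM, and was called higher with treatment in both genotypes, with a difference between the effects of -2.92 (-3.62 to -2.23). *C5ar1* was called higher with treatment in WT (33.1, 83.9, 21.5 and 35.5 FPKM). With treatment, 2 of the 16 were called higher in WT and 1 in GEF-H1-/- DCs, against 3.66% and 0.807% of all genes. Between treated cells, 4 were called higher in GEF-H1-/- DCs (*Cd5l* and the C1q genes) and 2 lower (*Cd14* and *C5ar1*), against 2.0% and 2.06%. Bounds there were apart and higher for 6 and apart and lower for 3, against 7.02% and 6.73%. The most abundant gene of the list beside *Cd14* was *Itgam*, at 169 to 231 FPKM.

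Of 19 macrophage transcription factors, 18 passed the filter and none was called between the genotypes in either state. The shares of all genes there were 1.26% higher and 0.614% lower in control cells, and 2.0% and 2.06% in treated cells. With treatment, 3 were called higher in WT (*Cebpb*, *Irf8* and *Atf3*) and 1 lower (*Klf4*), against 3.66% and 1.28% of all genes. In GEF-H1-/- DCs 1 was called higher (*Irf8*), against 0.807%. *Spi1*, the gene for PU.1 on which the macrophage lineage depends, was at 279, 389, 286 and 312 FPKM, the highest level of the list in each group, and was not called. *Irf8* was at 18.8, 96.8, 24.8 and 103 FPKM. *Klf4* was at 27.5, 10.2, 22.1 and 12.7 FPKM. *Cebpb* was at 92.2, 305, 136.6 and 187 FPKM, values that lay outside Cuffdiff's own bounds for that gene in all 4 groups, so its bounds were not used.

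The list of receptor shedding, the release of receptors such as MERTK from the surface, holds proteases together with regulators and inhibitors of proteases. In it 4 of 9 genes were called higher with treatment in WT and none in GEF-H1-/- DCs, against 3.66% and 0.807% of all genes. These were *Adam8* (168, 463, 200.4 and 298 FPKM), *Rhbdf2* (21.4, 47.0, 23.5 and 30.9), *Timp1* (5.49, 17.7, 18.8 and 20.2, with overlapping bounds) and *Timp3* (1.30, 6.74, 1.78 and 2.83). *Timp1* and *Timp3* encode inhibitors of metalloproteinases, so the count has no single direction for shedding, which was not measured. *Adam8* was the most abundant gene of the list. *Adam17*, the main sheddase of the TAM receptor MERTK, was at 23.8 to 26.9 FPKM and was not called in any comparison.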
